A study of Mus musculus with 6 samples.

Results

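Fos, Fosb, Jun, Junb, Jund, Egr1, Egr2, Egr3, Ier2 and Ier3 are immediate early genes, and their expression was followed in the mandibular arch of mouse embryos, the embryonic tissue that gives rise to the lower jaw. They were chosen by name, and every probe set that the array's annotation assigned to 1 of these symbols alone was taken, which gave 14 of the 45101 probe sets and 10 of the 18193 genes on the table. The samples were 3 arrays labelled Tbx1-/- and 3 labelled Tbx1+/+, all of strain C57BL/6 and all at E10.5. Tbx1 encodes a T-box transcription factor of the pharyngeal region. Arches were pooled by genotype from 3 embryos each, and whether every array carried a pool of its own is not settled by the description, so p-values measure the spread between these arrays, which may be partly technical. Values are normalized log2 expression, so a difference of 1 is a doubling. Levels of different probe sets are not set against each other, because each set has its own probes.

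Immediate early genes are transcribed within minutes of a stimulus without new protein synthesis. Growth factors, mechanical stress and other signals act through mitogen-activated kinases on serum response factor, its ternary complex partners and CREB, which already sit on or near these promoters. Fos and Jun family proteins pair through leucine zippers to form the transcription factor AP-1, Egr proteins are zinc finger factors of GC-rich sites, and Ier2 and Ier3 encode small proteins without a DNA-binding domain of either kind. The transcripts decay quickly, and dissection and handling of tissue are known to raise them, so the value on each array matters.

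The promoters of 3 of these genes are shown: Ier3 passed the test, Junb was the other gene whose brightest probe set did not overlap between the genotypes, and Fos had the widest spread. Each sequence is the 250 bases before the transcription start from RefSeq (GRCm38.p6), read along the gene's own strand. The window of Ier3 is chr17:35821463-35821712 on the plus strand, that of Fos chr12:85473640-85473889 on the plus strand, and that of Junb chr8:84978749-84978998 on the minus strand. Capitals mark TGACG, the core letters of the site bound by CREB and ATF proteins, ACGTG and GCGTG, the core bound by hypoxia-inducible factors, and the TATA motif TATAAA, each searched on both strands.
Ier3: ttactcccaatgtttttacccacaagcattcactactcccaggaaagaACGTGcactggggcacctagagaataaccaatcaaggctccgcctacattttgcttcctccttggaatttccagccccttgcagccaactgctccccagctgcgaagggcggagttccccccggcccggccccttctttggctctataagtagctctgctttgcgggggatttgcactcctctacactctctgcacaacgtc
Fos: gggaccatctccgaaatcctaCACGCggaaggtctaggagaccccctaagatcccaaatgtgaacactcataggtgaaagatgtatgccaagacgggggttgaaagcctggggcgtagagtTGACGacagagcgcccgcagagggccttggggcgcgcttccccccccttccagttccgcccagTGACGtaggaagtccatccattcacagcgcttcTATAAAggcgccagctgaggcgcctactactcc
Junb: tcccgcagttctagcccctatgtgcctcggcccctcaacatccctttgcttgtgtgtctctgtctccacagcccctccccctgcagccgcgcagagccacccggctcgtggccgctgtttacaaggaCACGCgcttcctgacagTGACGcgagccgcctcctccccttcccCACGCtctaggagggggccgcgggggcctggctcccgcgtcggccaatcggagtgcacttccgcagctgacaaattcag

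Of these, Ier3 held 1 ACGTG, its first base 202 bases before the start, a motif found in 16.6% of all 32851 promoter windows of that length. The motif is not particular to Ier3: 3 of the 7 genes searched held it, the others being Egr2 and Jund, which did not pass the test. Fos held 2 TGACG motifs, 129 and 66 bases before the start, against a share of 17.8% of all windows with at least 1, and a TATAAA at 33 bases, present in 12.4%. It also held 1 GCGTG, present in 28.2%. Junb held 1 TGACG at 106 bases and 2 GCGTG. Windows of 7 of the genes were searched, and of these Egr2 alone held the CArG box, the site of serum response factor, which 1.47% of all windows carry. The 7 genes had 11 windows, because Egr2 has several starts, some with overlapping windows. Egr2 thus had more room for a match than the others, while the shares are per window. Egr1, Egr3 and Ier2 were not searched, nor was any sequence farther than 250 bases before a start. A gene without a match can therefore hold such a site elsewhere. The AP-1 site TGANTCA (6.75% of windows) and the full CREB site TGACGTCA (1.55%), which contains TGACG, were in 0 of the 7. A match describes these letters and is not evidence of binding.

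Tbx1 itself was not lower on the arrays labelled Tbx1-/-: its 1 probe set read 7.59, 7.50 and 7.30 there, against 6.93, 7.31 and 6.92 on the Tbx1+/+ arrays (adjusted p = 1.00 in limma). The labels do not name the exons removed by the mutation, so this set does not check the genotypes, and directions follow the labels. Xist read 5.60 on Tbx1-/- replicate 2 and 10.43 or above on the other 5 arrays. Tbx1-/- replicate 3 held 249 genes more than 1 log2 unit above the mean of the other arrays, against 6 to 32 on each of those, while Tbx1-/- replicate 1 held 90 genes more than 1 below that mean, against 8 to 36 on the others. The summed level of 6 placental genes, 1 of them (Hand1) also an arch gene, was 14.54 (log2) on Tbx1-/- replicate 3, against 9.30 and 9.16 on the other Tbx1-/- arrays and 8.93 to 9.19 on the Tbx1+/+ arrays. All 12 arch mesenchyme markers, among them Dlx5, Hand2 and Prrx1, passed the filter for low values. In limma 0 of them passed, beside 0.0124% of all genes higher and 0.0249% lower. An unadjusted p under 0.05 was found for 0, beside 1.47% of all genes higher and 1.2% lower. Their summed level was 14.91 to 14.98 on the Tbx1-/- arrays and 14.90 to 15.00 on the Tbx1+/+ arrays. Of 4 yolk sac endoderm genes, 2 lay lower on the Tbx1-/- arrays without overlap, beside 3.25% of all genes. Ttr, the transthyretin gene, read 4.75, 6.10 and 5.98 on the Tbx1-/- arrays, against 6.42, 8.32 and 7.42 on the Tbx1+/+ arrays (adjusted p = 1.00 in limma, 0.0362 with the replicate block). Afp, alpha-fetoprotein, differed by -1.47 (adjusted p = 1.00 in limma, 0.0834 with the block), and the summed level of the 4 was 7.73, 8.67 and 8.41 on the Tbx1-/- arrays, against 8.75, 10.14 and 9.21 on the Tbx1+/+ arrays. Of 4 neuronal genes, Stmn2 lay above on every Tbx1-/- array, as did 3.17% of all genes, by 0.90 on average (adjusted p = 0.340 in limma), and the other 3 overlapped. The part of these cell types in the members' values was not tested.

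Ier3, a small stress-induced protein linked to cell survival and ERK signalling, was the 1 member that rose. It read 8.97, 8.16 and 8.39 on the Tbx1-/- arrays, against 6.87, 6.75 and 6.45 on the Tbx1+/+ arrays. All 3 Tbx1-/- arrays lay above all 3 Tbx1+/+ arrays, and the gap between them was wider than the range within either genotype. The means were 8.51 ± 0.41 on Tbx1-/- arrays and 6.69 ± 0.21 on Tbx1+/+ arrays (SD, n = 3 each), a 3.52-fold difference. The log2 difference was 1.82 (SE 0.21, 95% interval 1.34 to 2.29), and its adjusted p in limma was 0.0492 over 16073 genes, 0.0320 with the replicate number as a block. Taken by replicate number the Tbx1-/- array was higher by 2.10, 1.41 and 1.94. Of all genes tested, 0.0124% rose by this criterion and 0.0249% fell, 0.0373% in all. In arrays of whole tissue, more cells of a type and more RNA per cell cannot be told apart.

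The size of the Ier3 difference moved little when an array was left out, between 1.59 without Tbx1-/- replicate 1 and 1.99 without Tbx1-/- replicate 2, but the call did not survive every choice. Its adjusted p was 0.411, 0.402 and 0.229 without Tbx1+/+ replicates 1, 2 and 3, against 0.0374, 0.0368 and 0.0250 without Tbx1-/- replicates 1, 2 and 3. When every probe set was tested in place of 1 per gene, it was 0.0722, and 0.0190 with the replicate block.

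Ier2, the other Ier gene among the members, encodes a nuclear protein induced by growth factors. It read 8.38, 8.39 and 8.68 on the Tbx1-/- arrays, against 8.53, 8.35 and 8.36 on the Tbx1+/+ arrays, and the groups overlapped. The log2 difference was 0.07 (SE 0.12, 95% interval -0.20 to 0.34), which leaves out a difference as large as that of Ier3 but not a small one in either direction.

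**Figure D1:**
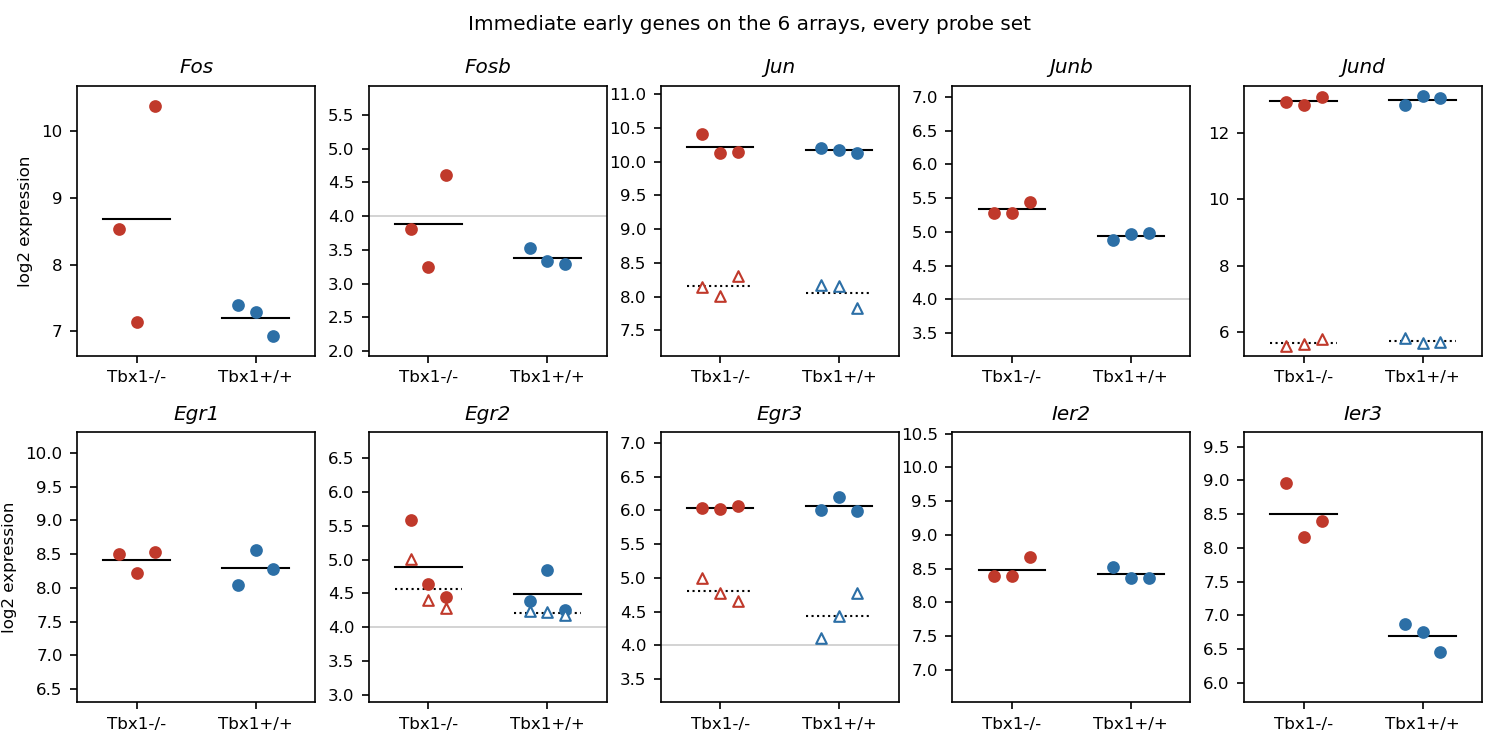
Normalized log2 expression (vertical axes, each with its own range) of the 10 genes on the 3 Tbx1-/- (red) and 3 Tbx1+/+ (blue) arrays, replicates 1 to 3 in order from left to right. Filled circles and solid lines are the brightest probe set of a gene and its mean, open triangles and dotted lines a second set, and the grey line marks the filter level of 4; Ier3 and Junb separate the genotypes, while Fos spreads from 7.13 to 10.38 within Tbx1-/-.

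Among the AP-1 genes, Fos differed most and was the least even. It read 8.53, 7.13 and 10.38 on the Tbx1-/- arrays, against 7.39, 7.29 and 6.93 on the Tbx1+/+ arrays. Replicates 1 and 3 of Tbx1-/- lay above every Tbx1+/+ array, while replicate 2 lay within their range. The means were 8.68 ± 1.63 on Tbx1-/- arrays and 7.20 ± 0.24 on Tbx1+/+ arrays (SD, n = 3 each). The log2 difference of 1.48 (SE 0.67, 95% interval -0.05 to 3.01) did not pass, with an unadjusted p of 0.0559 and an adjusted p of 1.00 in limma. It was 0.63 without Tbx1-/- replicate 3 and 2.26 without Tbx1-/- replicate 2, and 0.73 with arrays weighted by their quality, none past the threshold. With the replicate block the unadjusted p of Fos was 0.0355 in limma, and the difference again did not pass after adjustment.

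Fosb, the close relative of Fos, was near the bottom of the scale and was not tested, being above 4 on 1 array only. It read 3.80, 3.24 and 4.61 on the Tbx1-/- arrays, against 3.54, 3.33 and 3.29 on the Tbx1+/+ arrays. Only Tbx1-/- replicate 3 was above the filter level, so the size of its distance from the others, and the order among the others, are not read. Fos lay 3.18 above its Tbx1+/+ mean on the same array. The placental genes that set this array apart are given above, and their part in these values was not tested.

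Junb, an AP-1 partner that often restrains Jun, was higher on every Tbx1-/- array by a small amount. It read 5.28, 5.28 and 5.45 on the Tbx1-/- arrays, against 4.88, 4.96 and 4.99 on the Tbx1+/+ arrays, without overlap. The log2 difference was 0.39 (SE 0.11, 95% interval 0.13 to 0.65), 1.31-fold, with an unadjusted p of 0.00763 and an adjusted p of 1.00 over all genes in limma. It ranged from 0.34 without Tbx1-/- replicate 3 to 0.42 without Tbx1-/- replicate 2. The Junb values, at 4.88 to 5.45, lay near the filter level of 4, where differences are compressed.

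Jun, the founding partner of Fos in AP-1, and Jund, its constitutively expressed relative, differed little on either of their sets. The brighter Jun set read 10.41, 10.13 and 10.14 on the Tbx1-/- arrays, against 10.20, 10.17 and 10.12 on the Tbx1+/+ arrays, a log2 difference of 0.06 (SE 0.10, 95% interval -0.16 to 0.28). The second read 8.14, 8.01 and 8.31 on the Tbx1-/- arrays, against 8.18, 8.15 and 7.84 on the Tbx1+/+ arrays, a difference of 0.10 (SE 0.13). Both sets overlapped between the genotypes, and Jun did not share the high value that Fos had on Tbx1-/- replicate 3. The brighter Jund set read 12.92, 12.85 and 13.09 on the Tbx1-/- arrays, against 12.83, 13.11 and 13.06 on the Tbx1+/+ arrays, a difference of -0.05 (SE 0.09, 95% interval -0.25 to 0.16), and the second differed by -0.06 (SE 0.12), at 5.58 to 5.79 on Tbx1-/- arrays and 5.66 to 5.82 on Tbx1+/+ arrays. The intervals of both brighter sets exclude a doubling in either direction.

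**Figure D2:**
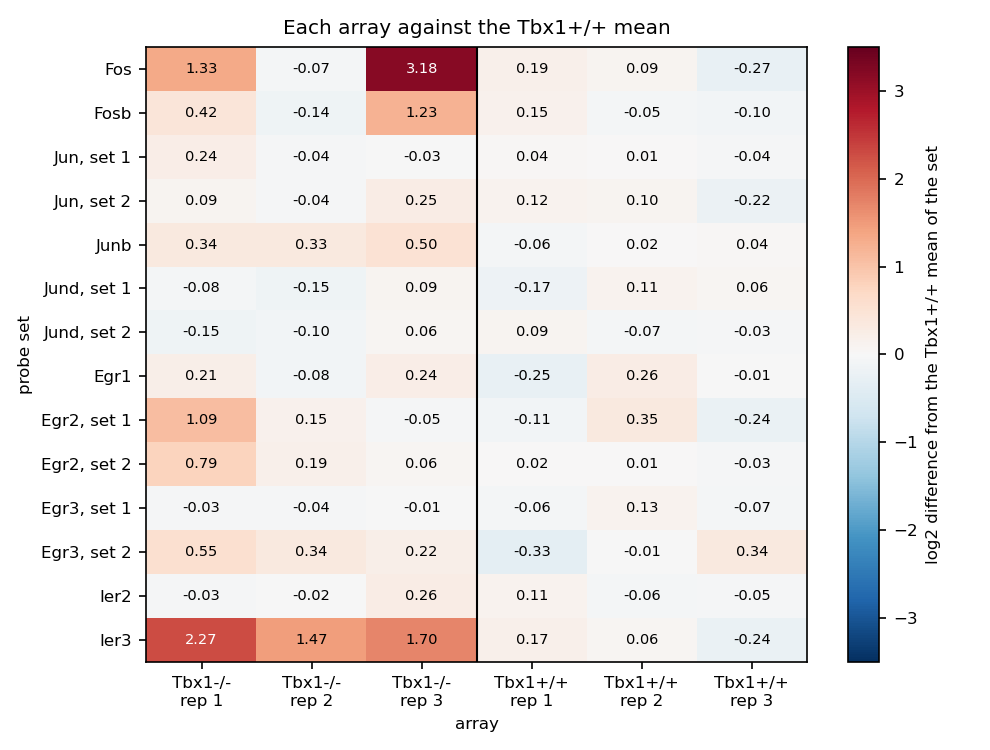
Difference of each array (columns, Tbx1-/- replicates left of the line and Tbx1+/+ replicates right of it) from the Tbx1+/+ mean of the same probe set, in log2 units, for all 14 sets (rows). Set 1 is the brighter of a gene; Ier3 is 2.27, 1.47 and 1.70 above on the Tbx1-/- arrays, Fos is 3.18 above on replicate 3, and both Egr2 sets are high on replicate 1.

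The Egr genes encode zinc finger transcription factors induced alongside Fos. Egr1 read 8.51, 8.21 and 8.54 on the Tbx1-/- arrays, against 8.05, 8.56 and 8.28 on the Tbx1+/+ arrays. The genotypes overlapped fully, the log2 difference being 0.12 (SE 0.15, 95% interval -0.22 to 0.47). Egr1 was thus not raised with Fos on Tbx1-/- replicate 3, where it lay 0.24 above its Tbx1+/+ mean.

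Egr2, also called Krox20 and known from hindbrain segmentation and Schwann cells, was highest on Tbx1-/- replicate 1 with both of its sets. The brighter set read 5.58, 4.64 and 4.44 on the Tbx1-/- arrays, against 4.38, 4.84 and 4.25 on the Tbx1+/+ arrays, and overlapped. Its log2 difference of 0.40 (SE 0.29, 95% interval -0.27 to 1.07) was 0.05 without Tbx1-/- replicate 1 and 0.62 without Tbx1-/- replicate 3. The second set read 5.0, 4.40 and 4.28 on the Tbx1-/- arrays, against 4.23, 4.22 and 4.19 on the Tbx1+/+ arrays, where the genotypes did not overlap. It differed by 0.35 (SE 0.19, 95% interval -0.08 to 0.77; adjusted p = 1.00 in limma). Both sets lay close to the filter level of 4, where differences are compressed.

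The 2 sets of Egr3, a target of calcium and growth factor signals, did not give the same picture. The brighter read 6.04, 6.02 and 6.06 on the Tbx1-/- arrays, against 6.00, 6.20 and 6.00 on the Tbx1+/+ arrays, a log2 difference of -0.03 (SE 0.11, 95% interval -0.28 to 0.23). The other read 4.99, 4.78 and 4.66 on the Tbx1-/- arrays, against 4.10, 4.43 and 4.78 on the Tbx1+/+ arrays, a difference of 0.37 (SE 0.18, 95% interval -0.05 to 0.79). Neither passed, and both overlapped. With the mean of the sets Egr3 differed by 0.17.

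**Figure D3:**
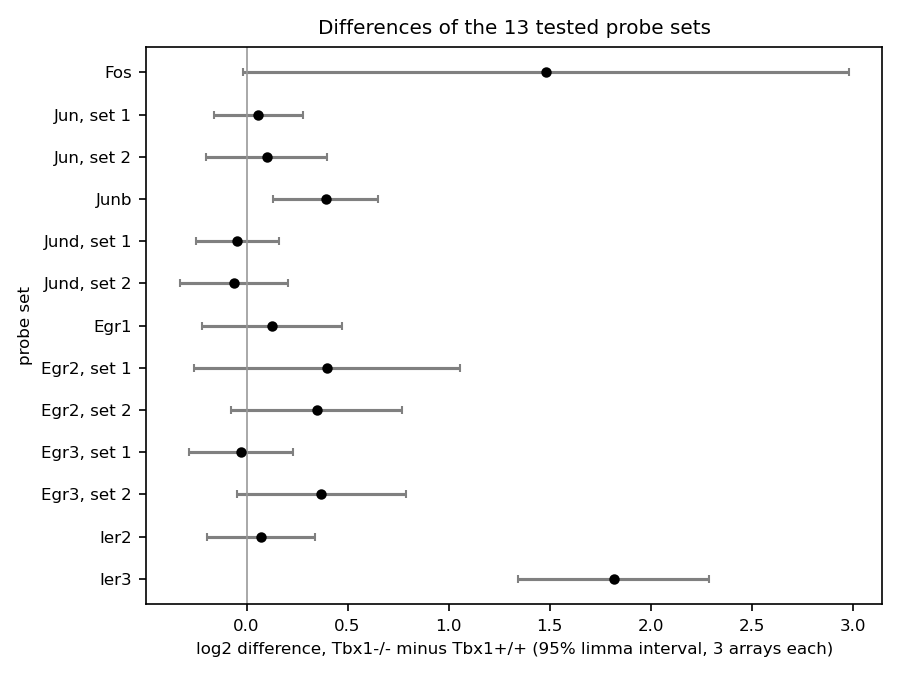
Log2 difference, Tbx1-/- minus Tbx1+/+ (horizontal axis), with its 95% interval from limma, for the 13 probe sets (rows) that passed the filter, n = 3 arrays per genotype, from the fit over all probe sets. The interval of Ier3 lies well above 0 and that of Junb just above it, that of Fos is the widest, and the others include 0.

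In all, 9 of the 10 members passed the filter for low values. Of these, 1 rose (Ier3) and 0 fell in limma, beside 0.0124% and 0.0249% of all genes, and the unadjusted p was under 0.05 for 2 with a higher mean (Ier3 and Junb) and 0 with a lower one, where all genes gave 1.47% and 1.2%. With every probe set tested, 0 of 13 sets passed, as against 0.0% of all sets higher and 0.00668% lower, and with the replicate block 1 did, that of Ier3. Means were higher on the Tbx1-/- arrays for 7 of the 9, where 47.3% of all genes were higher, and all Tbx1-/- arrays lay above all Tbx1+/+ arrays for 2 of the 9, where 3.17% of all genes did, and below them for 0, where 3.25% did. Among the probe sets 3 of 13 lay above without overlap (Ier3, Junb and the second set of Egr2), where 2.9% of all sets did. The median log2 difference was 0.12, against -0.01 over all genes. It was 0.25 without Tbx1+/+ replicate 2 and 0.08 without Tbx1-/- replicate 1. Since the genes were chosen with earlier results of these data known, these counts describe them and are not support for a shift.

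The members did not peak on 1 array. By the brightest set, Fos, Fosb (on that array alone above the filter level), Junb and Ier2 were highest on Tbx1-/- replicate 3, which was the highest array for 19.2% of all genes. Jun, Egr2 and Ier3 were highest on Tbx1-/- replicate 1, as were 17.7% of all genes. Jund, Egr1 and Egr3 were highest on Tbx1+/+ replicate 2. Tbx1-/- replicate 2 was the highest array for 0 of the 10.

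The wider set of 28 other immediate early genes all passed the filter, and 0 passed the limma test in either direction, where 0.0124% of all genes passed higher and 0.0249% lower. The unadjusted p was under 0.05 for 4 with a higher mean and 0 with a lower one, where all genes gave 1.47% and 1.2%. The median log2 difference was 0.17, against -0.01 over all genes. The mean was higher on Tbx1-/- arrays for 25 (47.3% of all genes), and all Tbx1-/- arrays lay above the Tbx1+/+ arrays for 6 (3.17% of all genes). Maff, a small Maf protein, read 7.16, 7.05 and 7.38 on the Tbx1-/- arrays, against 6.50, 6.58 and 6.64 on the Tbx1+/+ arrays, a difference of 0.62 (SE 0.12, adjusted p = 0.426 in limma). Atf3, a stress-induced bZIP factor, read 6.81, 6.41 and 6.87 on the Tbx1-/- arrays, against 6.05, 5.95 and 6.07 on the Tbx1+/+ arrays, a difference of 0.68 (SE 0.14, adjusted p = 0.577 in limma). Neither overlapped between the genotypes, and neither passed. This list and those that follow were chosen with earlier results of these data known. Their counts describe the genes and are not support for a shift.

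Klf6, a zinc finger factor, differed by 0.40 (SE 0.12) on its brightest set and by 0.28 to 0.40 on its other 4 sets. Fosl2, the AP-1 subunit Fra-2, differed by 0.20 (SE 0.09), the kinase Sgk1 by 0.32 (SE 0.13) and the small GTPase Rhob by 0.29 (SE 0.13), none past the threshold. Sgk1 differed by 0.20 without Tbx1-/- replicate 3, and Rhob by 0.19 without either Tbx1+/+ replicate 3 or Tbx1-/- replicate 1. Ccn1 and Ccn2 encode secreted matricellular proteins and are both targets of YAP and serum response factor. Ccn1 read 9.72, 8.98 and 11.82 on the Tbx1-/- arrays, against 9.25, 8.89 and 8.88 on the Tbx1+/+ arrays, a difference of 1.16 (SE 0.60) that was 0.34 without Tbx1-/- replicate 3 and 1.76 without Tbx1-/- replicate 2. Ccn2 read 9.68, 9.78 and 10.58 on the Tbx1-/- arrays, against 10.46, 10.51 and 10.47 on the Tbx1+/+ arrays, a difference of -0.47 (SE 0.21), or -0.30 without Tbx1-/- replicate 1. Both genes were highest on Tbx1-/- replicate 3, and the difference between them was not tested. Without Tbx1-/- replicate 3 Ccn2 fell by 0.75 on the log2 scale and passed (adjusted p = 0.0250 in limma). Of the 28 genes, 14 were highest on Tbx1-/- replicate 3, beside 19.2% of all genes.

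Of 14 genes that damp the response, all were tested and 0 passed in limma, beside 0.0124% of all genes higher and 0.0249% lower. An unadjusted p under 0.05 was found for 2 with a higher mean and 0 with a lower one, beside 1.47% and 1.2% of all genes. The median log2 difference was 0.10. The mean was higher on Tbx1-/- arrays for 12 (47.3% of all genes). By the brightest set, all Tbx1-/- arrays lay above the Tbx1+/+ arrays for 4 (3.17% of all genes), which were Dusp1, Zfp36, Errfi1 and Nab1. Zfp36, which promotes decay of short-lived transcripts, read 6.23, 5.69 and 6.42 on the Tbx1-/- arrays, against 5.58, 5.66 and 5.54 on the Tbx1+/+ arrays, a difference of 0.52 (SE 0.18). Errfi1, an inhibitor of the EGF receptor, differed by 0.34 (SE 0.14) on its brighter set, 0.15 without Tbx1-/- replicate 3, and by 0.24 on the other. The phosphatase Dusp1 differed by 0.27 (SE 0.13), or 0.13 without Tbx1-/- replicate 3. Spry2, an inhibitor of receptor tyrosine kinase signalling, differed by 0.18 (SE 0.13), or 0.054 without Tbx1+/+ replicate 2 and 0.072 without Tbx1-/- replicate 1. Dusp5, a nuclear ERK phosphatase, read 9.06, 8.51 and 10.78 on the Tbx1-/- arrays, against 8.46, 8.20 and 8.95 on the Tbx1+/+ arrays, a difference of 0.91 (SE 0.51) that was 0.25 without Tbx1-/- replicate 3 and 1.38 without Tbx1-/- replicate 2. Its highest array was again Tbx1-/- replicate 3, and its genotypes overlapped.

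Upstream of the members, 14 of 18 listed genes had a probe set of 1 symbol, and all 14 were tested. In limma 0 passed, beside 0.0124% of all genes higher and 0.0249% lower, with 0 at an unadjusted p under 0.05. On the brightest set of each gene the differences ran from -0.15 to 0.09 with a median of -0.01. On the other sets they ran from -0.41, on a set of Elk3 where all Tbx1-/- arrays lay below the Tbx1+/+ arrays, to 0.27, on a set of Crem. Srf, the serum response factor, differed by -0.08 (SE 0.09), its partners Elk1 by 0.08 (SE 0.08) and Elk4 by -0.15 (SE 0.09), and the kinase Map2k1, which activates ERK, by 0.08 (SE 0.08). With 1 array left out these 4 ran between -0.19 and 0.12. These are transcript levels, and activity of the kinases was not measured.

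**Figure D4:**
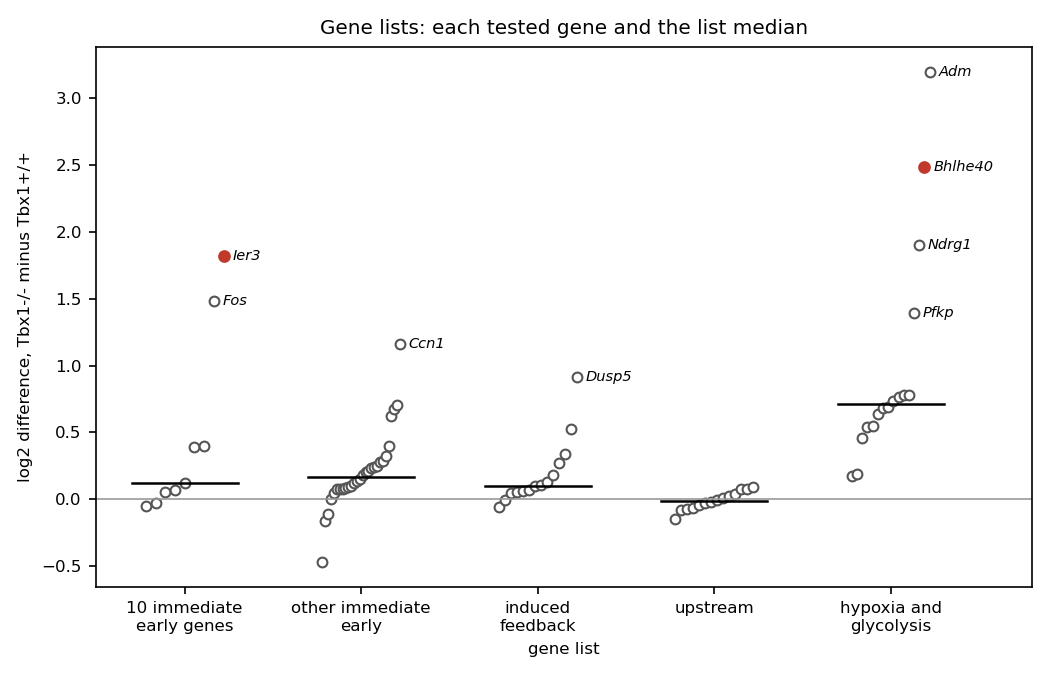
Log2 difference, Tbx1-/- minus Tbx1+/+ (vertical axis), of each tested gene in 5 lists, with the list median as a bar; filled red points passed over all genes in limma and genes past 0.9 are named. By the brightest set of each gene, the upstream genes lie between -0.15 and 0.09, the 28 other immediate early genes have a median of 0.17, and the hypoxia and glycolysis genes have a median of 0.71.

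Among 670 genes with a range of at least 1 over the 6 arrays, those whose profile was most like Ier3 were P4ha2, a collagen prolyl hydroxylase (Pearson r = 0.981), Bhlhe40, a bHLH repressor of transcription (0.979), the hypoxia-inducible Ndrg1 (0.976), Trib3, a pseudokinase of the stress response (0.976), and Upp1, uridine phosphorylase (0.975). Bhlhe40 read 9.12, 8.26 and 8.02 on the Tbx1-/- arrays, against 5.84, 6.12 and 6.00 on the Tbx1+/+ arrays, and rose as well (adjusted p = 0.0461 in limma). Its adjusted p in limma was 0.411, 0.402 and 0.229 without Tbx1+/+ replicates 1, 2 and 3, the same values as for Ier3, and 0.0504 without Tbx1-/- replicate 2. It also did not pass with no filter, with values under 4 raised to 4, with no intensity trend or with the mean of a gene's sets. Ndrg1 differed by 1.90 (SE 0.23), with an adjusted p of 0.0637, or 0.0478 with the replicate block, the glycolytic enzyme Pfkp by 1.39 (SE 0.23) and P4ha2 by 0.74 (SE 0.14). Ier3 itself separates the genotypes, so a gene with a large step between them scores high on this likeness. The r values describe the profiles and do not mark a likeness particular to Ier3. P4ha2, Bhlhe40 and Ndrg1 belong to a list of 16 hypoxia and glycolysis genes. Of these 16, 1 rose in limma (3 with the replicate block) and 0 fell, beside 0.0124% of all genes higher and 0.0249% lower (0.0622% in either direction with the block). For 13 of the 16 all Tbx1-/- arrays lay above the Tbx1+/+ arrays, as for 3.17% of all genes, and the summed level of the list was 16.14, 15.85 and 15.74 (log2) on the Tbx1-/- arrays, against 15.37, 15.42 and 15.48 on the Tbx1+/+ arrays. Tbx1-/- replicate 1 was the highest array for 14 of the 16, beside 17.7% of all genes, as it was for Ier3. This list too was chosen with earlier results of these data known. Its counts describe these genes and are not support for a shift. The part of these genes in the Ier3 difference was not tested.

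The genes most like Fos were others. They were Gdpd3, a lysophospholipase D (0.983), Ccn1 (0.982), the heme oxygenase Hmox1 (0.982), the surface glycoprotein Cd200 (0.977) and the membrane protein Myadm (0.975), and all 5 were highest on Tbx1-/- replicate 3. Hmox1 read 9.12, 8.89 and 9.97 on the Tbx1-/- arrays, against 8.91, 8.82 and 8.70 on the Tbx1+/+ arrays. The points of such a profile share the 6 arrays and 1 high array sets most of the likeness to Fos, so these values describe the profiles. Of the 6 placental genes, 5 were highest on the same array: Prl7a1 and Prl4a1, placental prolactins, read 13.28 and 13.19 there and 6.04 or below on every other array, while Tpbpa, a spongiotrophoblast marker, read 5.01, and 3 of the 6 (Prl7a1, Prl4a1 and Cyp11a1) had been picked from these arrays. Of 6 macrophage genes 4 were highest there, beside 19.2% of all genes. The summed level of the 6 was 11.98, against 8.74 and 8.90 on the other Tbx1-/- arrays and 8.90 to 9.37 on the Tbx1+/+ arrays, most of it from Csf1r at 11.77. Fcer1g, Lyz2 and Ptprc read 7.53, 7.67 and 6.12 there, against at most 7.30, 6.71 and 6.02 elsewhere. Cx3cr1 and Adgre1 lay within the range of the other arrays. The part of other cell types in the Fos, Fosb, Ccn1 and Dusp5 values was not tested.

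**Figure D5:**
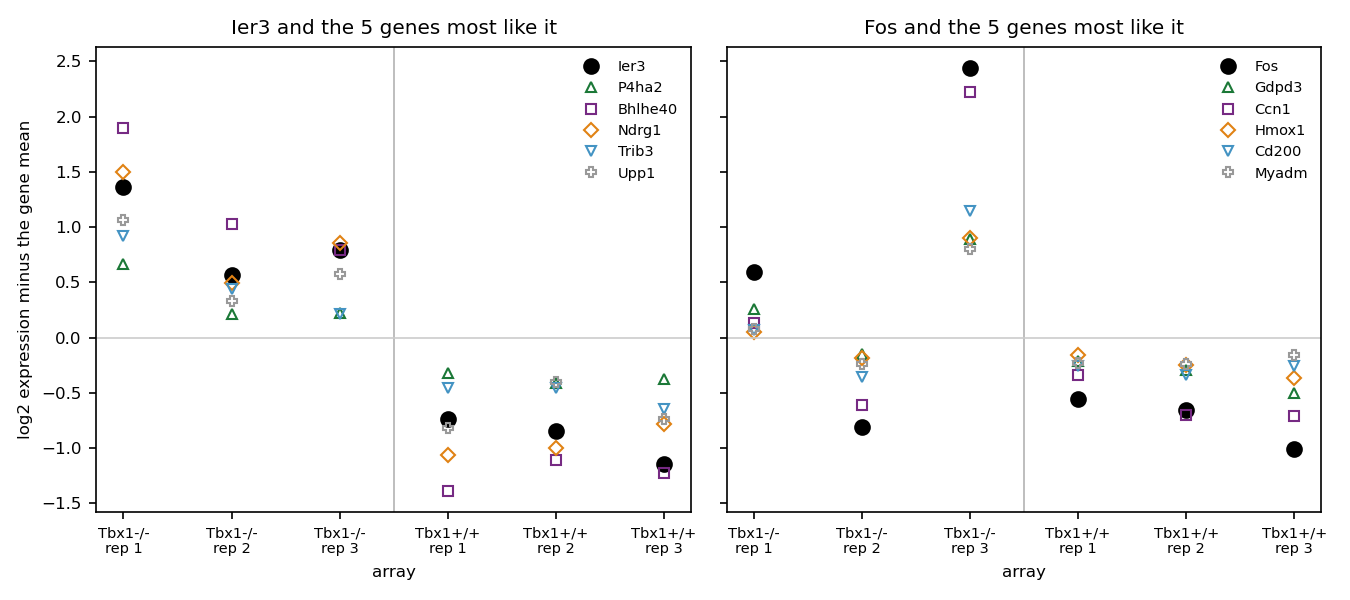
Log2 expression minus the gene's own mean (vertical axis) on the 6 arrays (horizontal axis, Tbx1-/- left) for Ier3 with the 5 genes most like it (left panel) and Fos with its 5 (right panel). The Ier3 group is above its mean on all 3 Tbx1-/- arrays and highest on replicate 1, and the Fos group is highest on Tbx1-/- replicate 3.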

How the data were processed

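Total RNA, 100 ng per array, was amplified, labelled and hybridized to Affymetrix mouse genome arrays, per the labels' protocols. The values deposited by the authors are on the log2 scale, as their range of 1.95 to 15.11 shows, and were made with GCRMA per the submitters' processing notes, which name no version. GCRMA normalizes between arrays, which would remove a shift of most genes, and compresses differences near background. Precision is limited by the number of arrays.

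Of 45101 probe sets, 64 of them controls, 34945 had 1 gene symbol from the platform annotation, 932 had several and the others were unnamed here. 34754 matched the reference gene table by gene ID, which changed 0 symbols. A gene's value is that of its brightest probe set by mean. Genes above 4 on at least 3 arrays were kept, which left 16073 and set aside 2120. Genotypes were compared in limma 3.58.1 (R 4.3.3) with lmFit and eBayes with an intensity trend, Benjamini-Hochberg adjustment over all kept genes and a threshold of 0.05. A second fit took all 29935 probe sets that passed the filter; values of a gene's second set come from it. The members and lists were chosen with earlier results of these data known. The named genes were the members, Tbx1, the listed genes with the smallest p (8 other immediate early, 5 feedback, 4 upstream and 4 hypoxia genes) and the 5 most like Ier3 and Fos; the text prints part of them, and Prl7a1, Prl4a1, Cyp11a1, Tpbpa, Csf1r, Ttr, Afp, Stmn2, Xist and the arch markers as sample checks. A summed level is the log2 of the sum of unlogged values over a list.

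Replicates 1 to 3 exist in both genotypes, and what a shared number stands for is not stated. After subtracting genotype means, same-numbered arrays correlated at 0.261, 0.130 and 0.135, other pairs across genotypes at -0.195 to 0.0647. On this basis, which comes from the data, the numbers were taken to pair the arrays. Values with the replicate number as a block stand beside results whose call they change. SEs, intervals, unadjusted p-values and their counts are without the block unless it is named. With the block more listed genes had an unadjusted p under 0.05 in limma. Among them were Fos (0.0355), Ccn1 (0.0464) and Dusp5 (0.0101), with higher means, and Ccn2 (0.0264), with a lower one. The limma step was tested on 10 simulated data sets of 16073 genes: it called 81.3% of genes changed by 1 and 96.9% of those changed by 2 on the log2 scale, with 5.13% false calls. The simulated noise was normal and independent between genes, with SDs shuffled over the genes and 200 genes changed. The real comparison gave 6 calls, and Ndrg1 at 1.90 and Fos at 1.48 did not pass in it. These shares are therefore not its power, and a gene that did not pass is not thereby unchanged. Alternatives were other filters, scalings, weights, probe set rules, the block and leaving out each array.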

Additional observations from a re-analysis of the deposited data

How the results depend on the processing

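The count of members that rose was 1, and 0 with no filter, with values under 4 raised to 4, with no intensity trend, with the mean of a gene's sets, after quantile normalization was repeated or when each array was centred on its median. Leaving out 1 array gave 0 to 1. The adjusted p of Ier3 in limma was 0.0563, 0.0571, 0.111, 0.108, 0.0538 and 0.0542 under those 6 settings, 0.0452 with array weights and 0.0320 with the replicate block, and its difference stayed between 1.59 and 1.99 in all 14. Over all probe sets 0 members passed, 1 with the replicate block and 0 to 1 with an array left out; the block changed no other call of a member or of the other immediate early, feedback and upstream genes. For the other immediate early genes, leaving out 1 array gave 0 to 1. The members' median of 0.12 was 0.26 with no filter, where Fosb joins them, 0.039 with array weights, and 0.080 to 0.25 with 1 array left out. Egr3 turned to 0.17 with the mean of its sets, and with 1 array left out the differences ranged from -0.032 to 0.11 for Jun, -0.13 to 0.0087 for Jund, -0.00055 to 0.25 for Egr1, -0.063 to 0.040 for Egr3 and -0.027 to 0.13 for Ier2. Over all genes 2 passed higher and 4 lower, 0 and 2 with no filter, with the floor or with no trend, 0 and 0 with the mean of sets, 4 and 6 with the block, and 13 and 8 without Tbx1-/- replicate 3. The causes were not tested, beyond the fewer arrays or other genes that each setting holds.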

Other observations

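Nr4a3, an orphan nuclear receptor of the immediate early class, was named after its values were seen. Its brightest probe set read 5.65, 6.16 and 7.74 on the Tbx1-/- arrays, against 5.67, 5.72 and 6.04 on the Tbx1+/+ arrays. A second set read 4.83, 5.04 and 4.88 on the Tbx1-/- arrays, against 5.20, 5.17 and 5.08 on the Tbx1+/+ arrays. These 2 sets differed in direction. The difference of the brightest set was 0.70, or 0.094 without Tbx1-/- replicate 3. The remaining set of Nr4a3, below the filter level of 4 on every array, differed by 0.042. The 4 sets of Ccn1 were each highest on Tbx1-/- replicate 3, at 11.82, 10.30, 8.20 and 8.20. On the Tbx1+/+ arrays they averaged 9.01, 7.29, 6.86 and 6.84. On the dimmest 2 of them, Tbx1-/- replicates 1 and 2 read 6.45 to 6.61, below the Tbx1+/+ arrays at 6.62 to 7.15.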
